A study of Mus musculus with 2 samples.

Results

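The ligands and receptors of the fibroblast growth factor (FGF) family were examined in 1 E7.5 Dullard-homozygous embryo (*Dullard*-/-) and 1 E7.5 Dullard-heterozygous embryo (*Dullard*+/-), which serves as the control and itself carries 1 mutant copy. Both were whole embryos of the C57BL/6 strain, and the RNA of each was hybridised to 1 array of a 1-colour Agilent whole mouse genome design. The set holds 10 genes, of 20283 that could be named on the array, and comprises 7 ligands (*Fgf3*, *Fgf4*, *Fgf5*, *Fgf8*, *Fgf10*, *Fgf15* and *Fgf17*) and 3 receptors (*Fgfr1*, *Fgfr2* and *Fgfr3*). They were chosen by gene name, through the RefSeq accession of each probe, and have 16 probes on 34 spots. All 16 probes were well above background on both arrays. The genes were not chosen by a measured value, but earlier results of these arrays were known when the set was drawn up. Each genotype is 1 embryo, so no difference could be set against a spread between embryos, no test was run, and a difference describes these embryos and not the genotypes. The study made a null and a LacZ allele of *Dullard* and used *Dullard*-/- for either. The labels do not say which allele was on these arrays.

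FGFs are secreted proteins that bind receptor tyrosine kinases on neighbouring cells together with heparan sulphate, and the activated receptor signals through RAS and a cascade of kinases. In the gastrulating mouse embryo FGF signals from the epiblast and primitive streak are needed for cells to leave the streak as mesoderm, and FGF4 from the epiblast maintains the extraembryonic ectoderm next to it. Targets of the pathway include its own inhibitors, the Sprouty and Spred proteins and the phosphatase *Dusp6*.

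Signals are background-subtracted fluorescence in arbitrary units. Fold changes are *Dullard*-/- over *Dullard*+/- after each array was divided by the 75th percentile of its spots, which was 264 for the *Dullard*-/- and 286 for the *Dullard*+/- embryo. The error (±) of a log2 fold change is the SD between replicate spots of the 40 replicated probes nearest in signal, over the square root of a gene's probe count. It leaves out the spread between embryos. Different probes of 1 gene differed more than this, with a pooled SD of 0.29 over 3747 genes. The probe for *Dullard* (*Ctdnep1*, NM_026017) gave 144 in the *Dullard*-/- embryo, against 672 in the *Dullard*+/- embryo, 4.31-fold lower, and was well above background in both. In the paper, in situ hybridisation and Q-PCR found no *Dullard* transcript in *Dullard*-/- embryos at E7.5. The source of the signal of 144 was not tested. The null allele lacks all exons of the gene, while the place of the probe relative to the change in the LacZ allele is not known here. Over the 14770 genes measured on both arrays 92.7% lay within 1.5-fold, and the median log2 fold change was 0.01.

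The ligands went apart while the receptors stayed close to the level of the *Dullard*+/- embryo. *Fgf4* was 3.0-fold lower in the *Dullard*-/- embryo, *Fgf10* was 2.27-fold higher, *Fgf8* was 1.91-fold higher and *Fgf5* was 1.86-fold higher. *Fgf3*, *Fgf15*, *Fgf17* and the 3 receptors all lay within 1.5-fold. The log2 fold changes of the 7 ligands spanned 2.77, against 0.19 for the 3 receptors. These spans are not on an equal footing, since a span grows with the number of genes. Each receptor is also a mean over 2 or 3 probes, while every ligand but *Fgf8* has 1. Single receptor probes ran from -0.07 to 0.39. In all, 1 of 10 members was at least 2-fold higher, as were 0.894% of all genes, and 1 of 10 was at least 2-fold lower, as were 0.765% of all genes. At 1.5-fold, 3 were higher (3.92% of all genes) and 1 was lower (3.37% of all genes). The median of the members was 0.10 on the log2 scale. These are whole embryos, so fewer cells of a type and less RNA per cell cannot be told apart.

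**Figure D1:**
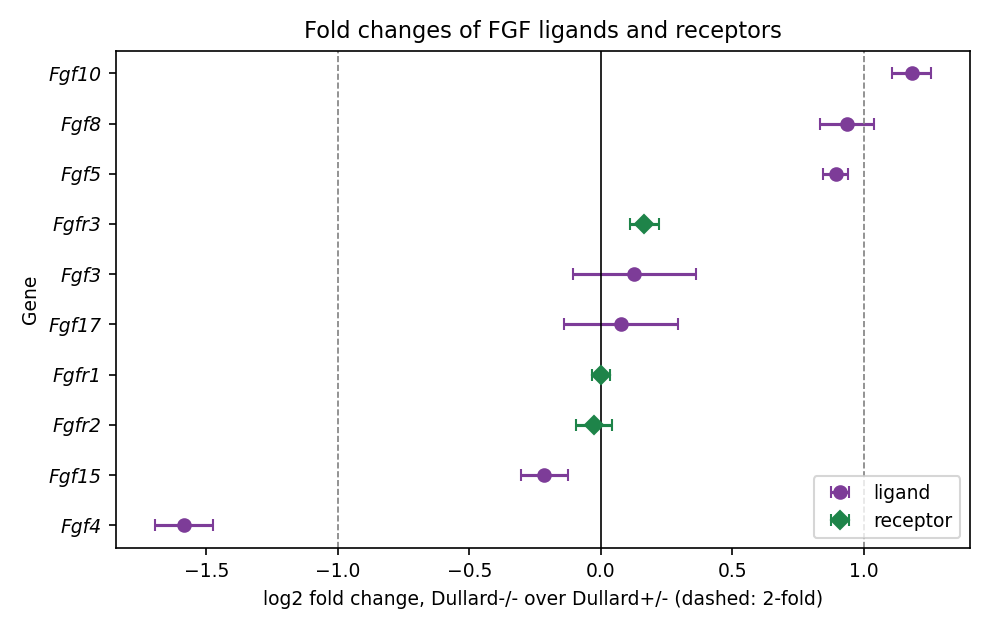
The horizontal axis is the log2 fold change, *Dullard*-/- over *Dullard*+/-, for each FGF ligand (circles) and receptor (diamonds), 1 embryo per genotype. Bars are the error from replicate spots and dashed lines mark 2-fold. *Fgf10* lies highest at 1.18 and *Fgf4* lowest at -1.59, and the 3 receptors lie between -0.03 and 0.17.

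The 250 bases before the transcription start are shown for *Fgf4*, *Fgf5* and *Fgf10*, since these are the ligands more than 1.5-fold apart between the embryos for which the RefSeq promoter table (GRCm38.p6) held an entry. The table held one for 6 of the 10 genes, the others being *Fgf3*, *Fgfr2* and *Fgfr3*. The stretches are on the plus strand at chr7:144861136-144861385 for *Fgf4*, chr5:98253934-98254183 for *Fgf5* and chr13:118714449-118714698 for *Fgf10*. Capitals mark matches, on either strand, to the letters CTTTGA (a LEF/TCF core), GGTGTG (a T-box core), GGGCGG (a GC box), CCAAT and TATAAA.
*Fgf4*: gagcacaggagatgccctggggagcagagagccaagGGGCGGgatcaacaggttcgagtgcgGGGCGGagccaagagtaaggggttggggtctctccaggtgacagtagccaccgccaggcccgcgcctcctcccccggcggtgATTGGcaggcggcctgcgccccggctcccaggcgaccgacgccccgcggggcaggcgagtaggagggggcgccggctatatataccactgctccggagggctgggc
*Fgf5*: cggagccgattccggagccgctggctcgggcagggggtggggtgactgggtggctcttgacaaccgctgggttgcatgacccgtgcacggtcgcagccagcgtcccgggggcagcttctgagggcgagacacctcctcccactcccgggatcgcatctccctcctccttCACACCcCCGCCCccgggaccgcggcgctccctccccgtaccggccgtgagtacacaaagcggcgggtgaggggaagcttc
*Fgf10*: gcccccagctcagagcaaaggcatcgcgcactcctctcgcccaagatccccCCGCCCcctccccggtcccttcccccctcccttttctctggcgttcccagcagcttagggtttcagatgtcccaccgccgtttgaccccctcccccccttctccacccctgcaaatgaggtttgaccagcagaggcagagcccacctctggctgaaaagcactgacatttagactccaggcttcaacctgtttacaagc
The *Fgf4* stretch has GGGCGG starting 214 and 188 bases before the start of transcription and CCAAT on the other strand at 106. The *Fgf5* stretch has GGTGTG at 81 and GGGCGG at 74, both on the other strand and not overlapping, and the *Fgf10* stretch has GGGCGG on the other strand at 199. Of 32851 upstream stretches of the same length, 32.7% hold GGGCGG, 33.8% CCAAT, 16.3% GGTGTG, 13.8% CTTTGA and 12.4% TATAAA. A match is only a match of letters, and CTTTGA and TATAAA were not in these 3 windows.

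*Fgf4*, the ligand of epiblast and streak on which the extraembryonic ectoderm depends, was the lowest member. Its probe (NM_010202) gave 33.6 in the *Dullard*-/- embryo, against 109 in the *Dullard*+/- embryo. The log2 fold change was -1.59 ± 0.11. The paper already reports *Fgf4*, as a marker of nascent mesoderm, down-regulated in its E7.5 microarray data, so this value is not a separate result. Genes were split by signal into 4 bins of equal size, and in the bin of *Fgf4* (the second lowest) 0.704% were at least 2-fold lower. The gene rests on a single spot per array. With a background correction that adds an offset of 50 (normexp) the value was -0.77, inside 2-fold, whereas with the same correction and no offset it was -1.42.

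*Fgf4* lies between *Fgf3* and *Fgf15* on chromosome 7, with no other protein-coding gene between them in the RefSeq table, and the neighbours did not share its difference. *Fgf3* gave 23.3 in the *Dullard*-/- embryo, against 23.1 in the *Dullard*+/- embryo (log2 fold change 0.13 ± 0.23). *Fgf15* gave 88.2 in the *Dullard*-/- and 111 in the *Dullard*+/- embryo (-0.22 ± 0.09). Of the 3 protein-coding genes on each side of this run, *Ano1*, a chloride channel, was at 0.81 ± 0.22. The other 5 lay between -0.23 (*Fadd*, a death receptor adaptor) and 0.09 (*LTO1*). Of these *Ccnd1*, the cyclin of the start of the cell cycle, was at -0.08, *Tpcn2* at -0.03 and *Ppfia1* at 0.09.

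*Fgf10*, which later drives limb and lung budding through *Fgfr2*, was the highest member, and its probe (NM_008002) was spotted 10 times on each array. The spots gave 275 to 327 (median 291) in the *Dullard*-/- embryo, against 123 to 153 (median 141) in the *Dullard*+/- embryo. No spot of the *Dullard*-/- array was as low as the highest of the other array, before or after scaling. The mean log2 fold change was 1.18 ± 0.07, with single spots from 1.06 to 1.33 and an SD between them of 0.07. Spots of 1 array share its RNA and labelling and are not separate samples. In its bin of signal (the second highest) 0.217% of genes were at least 2-fold higher. With the offset of 50 its value was 0.88, inside 2-fold.

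*Fgfr2*, the receptor that binds FGF10 in later organs and is known in the extraembryonic ectoderm at this stage, has another probe spotted 10 times (NM_010207). It gave 45.6 to 57.2 (median 52.8) in the *Dullard*-/- embryo, against 48.4 to 61.1 (median 56.9) in the *Dullard*+/- embryo. Here the spots of the arrays overlapped over most of their range. The single spots gave log2 fold changes from -0.24 to 0.28, with a mean of 0.02 and an SD of 0.14.

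**Figure D2:**
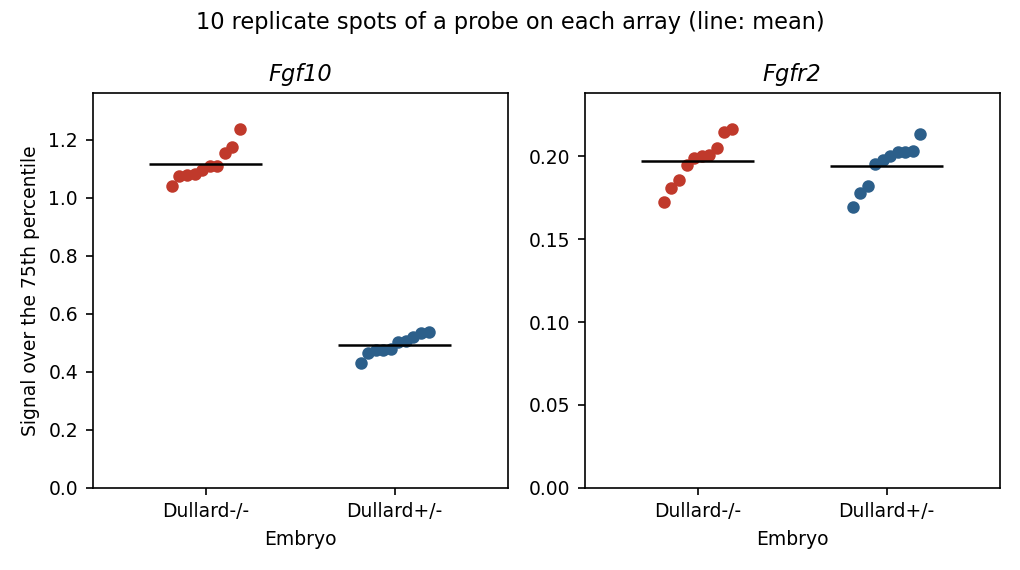
Signal over the 75th percentile of its array (vertical axis) of each of the 10 spots of the *Fgf10* probe and of 1 *Fgfr2* probe, in the *Dullard*-/- embryo (left in each panel) and the *Dullard*+/- embryo (right), with the mean as a line. The *Fgf10* spots lie at 1.04 to 1.24 in the *Dullard*-/- and 0.43 to 0.54 in the *Dullard*+/- embryo, and the *Fgfr2* spots lie at 0.17 to 0.22 and 0.17 to 0.21.

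*Fgf8*, which the streak needs for cells to migrate out of it, was higher on each of its 3 probes (NM_010205). The brightest gave 870 in the *Dullard*-/- embryo, against 560 in the *Dullard*+/- embryo, 1.68-fold higher. The next gave 103 in the *Dullard*-/- and 70.5 in the *Dullard*+/- embryo, 1.57-fold higher. The dimmest gave 21.1 in the *Dullard*-/- and 8.62 in the *Dullard*+/- embryo, 2.65-fold higher, near the lowest signal well above background (7.27 for the *Dullard*-/- and 6.20 for the *Dullard*+/- array). So the probes shared the direction, and the mean of 0.94 ± 0.10 on the log2 scale is raised by the dimmest of them. The brightest alone was at 0.75 ± 0.05. With the offset of 50 the mean was 0.48, inside 1.5-fold. In the bin of signal of *Fgf8* (the second lowest) 4.79% of genes were at least 1.5-fold higher. By in situ hybridisation, the paper reports *Fgf8* in *Dullard*-/- embryos as weaker at the posterior end of the streak and strong at its anterior end. The signals here are of whole embryos and do not show where the difference lies.

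*Fgf5*, a ligand that marks the primed epiblast and later restrains hair growth, had a bright probe (NM_010203). It gave 6963 in the *Dullard*-/- embryo, against 4056 in the *Dullard*+/- embryo (log2 fold change 0.89 ± 0.05). It was the member whose difference was largest relative to its error, and in the brightest bin of genes, to which it belongs, 0.704% were at least 1.5-fold higher. Across the 11 other ways of processing, its log2 fold change ran from 0.78 to 0.93. Those that combine probes or drop the dim filter could not change the value of its single probe. The epiblast list around it did not move as a whole. Of 6 measured epiblast genes, *Otx2* was at 0.82 and *Pou3f1* at 0.53, while the pluripotency factor *Pou5f1* was the lowest at -0.06 and *Utf1* was at 0.07, and the median was 0.08.

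**Figure D3:**
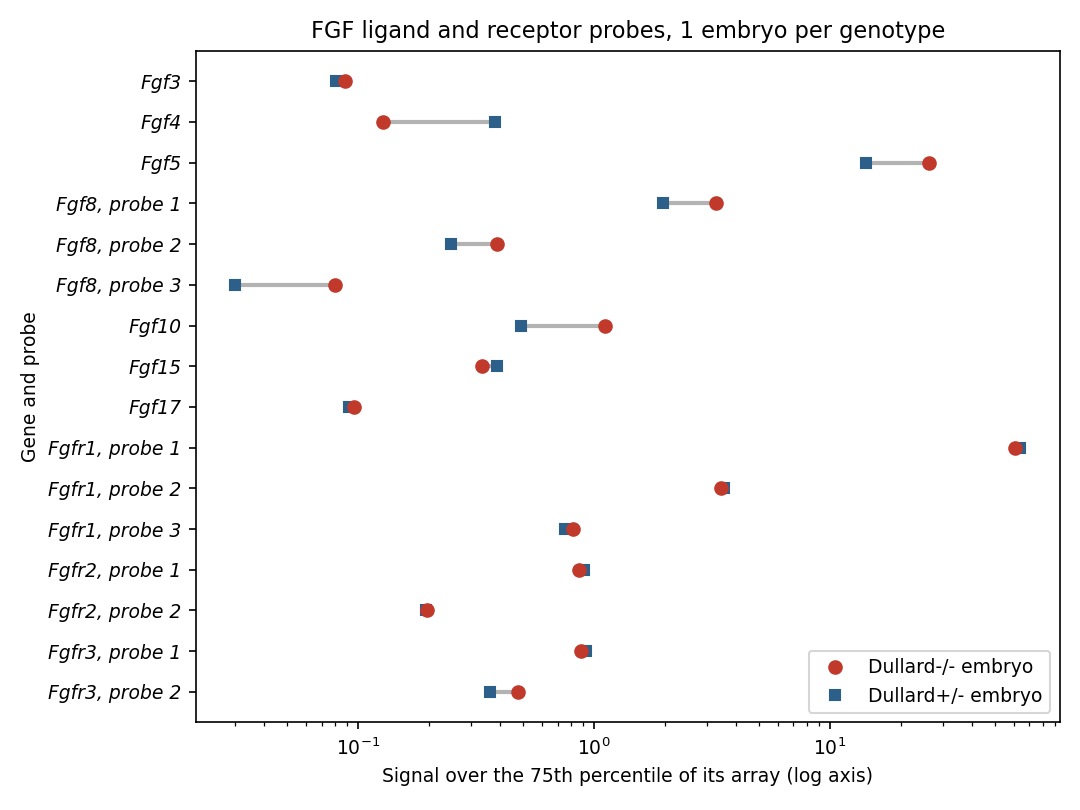
Signal over the 75th percentile of its array (horizontal log axis) of each of the 16 probes of the FGF ligands and receptors, in the *Dullard*-/- embryo (circles) and the *Dullard*+/- embryo (squares), probes of a gene ordered by brightness. *Fgf4* is at 0.13 in the *Dullard*-/- and 0.38 in the *Dullard*+/- embryo, and *Fgf5* is at 26.3 and 14.2. Levels of different probes cannot be set against each other.

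The other ligands differed little. *Fgf17*, the close relative of *Fgf8*, gave 25.4 in the *Dullard*-/- embryo, against 26.0 in the *Dullard*+/- embryo, and its log2 fold change of 0.08 ± 0.22 did not share the difference of *Fgf8*. It turned to -0.04 without scaling between the arrays. *Fgf3*, known for the inner ear and tail, and *Fgf17* were dim, with errors of 0.23 and 0.22. Changes larger than these errors could also go unseen, since the errors leave out differences between probes and between embryos. *Fgf15*, the mouse counterpart of human FGF19, lay below 0 in each of the 11 alternatives, between -0.33 and -0.13. Those that combine probes or drop the dim filter could not change the value of its single probe.

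*Fgfr1*, the main FGF receptor of epiblast and streak, had the smallest error of the members. Its 3 probes (NM_010206) gave 16154, 911 and 216 in the *Dullard*-/- embryo, against 18368, 1019 and 215 in the *Dullard*+/- embryo. The probes gave log2 fold changes of -0.07, -0.05 and 0.12, with a mean of 0.00 ± 0.03. Without scaling it was at -0.11, close to the shift of all genes in that setting, whose median was at -0.10. The other *Fgfr2* probe gave 228 in the *Dullard*-/- and 259 in the *Dullard*+/- embryo, and the gene's log2 fold change was -0.03 ± 0.07. *Fgfr3*, which restrains bone growth later, had probes (NM_001163215) that went apart. Its brighter probe gave 234 in the *Dullard*-/- embryo, against 264 in the *Dullard*+/- embryo (-0.06), and the dimmer 126, against 104 (0.39). The mean was 0.17 ± 0.05, with the probes on opposite sides of 0. Which splice forms of the receptors these probes detect is not known here.

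**Figure D4:**
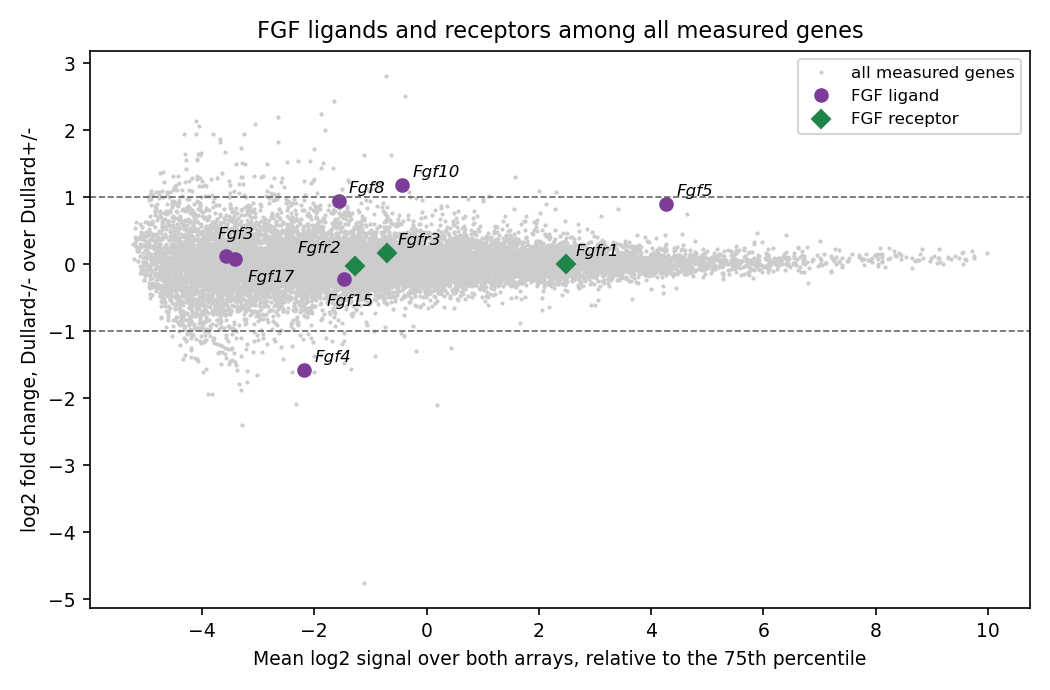
The vertical axis is the log2 fold change, *Dullard*-/- over *Dullard*+/-, for all 14770 measured genes, and the horizontal axis is the mean log2 signal of both arrays, with FGF ligands as circles and receptors as diamonds. The spread of all genes widens toward dim signals. *Fgf10* (1.18), *Fgf5* (0.89) and *Fgf4* (-1.59) lie at the edge of the genes of like signal, and the receptors lie near 0.

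Among the other genes of the family, 8 of 15 were well above background on both arrays. They are secreted ligands except *Fgf11*, *Fgf12*, *Fgf13* and *Fgf14*, homologues that stay inside the cell, and all of these but *Fgf12* are among the 8. None of the 8 was at least 2-fold higher (0.894% of all genes) or lower (0.765% of all genes). At 1.5-fold, 1 of the 8 was lower, as were 3.37% of all genes. The median log2 fold change of the 8 was 0.03. *Fgf18* was the lowest at -0.85 ± 0.28, from signals of 10.8 in the *Dullard*-/- and 21.0 in the *Dullard*+/- embryo, and was at -0.11 with the offset of 50. The highest was *Fgf13* at 0.54 ± 0.18, and the highest secreted ligand was *Fgf1* at 0.46. *Fgf2* cleared the background of the *Dullard*+/- array alone (6.58 in the *Dullard*-/- and 8.41 in the *Dullard*+/- embryo), and 6 were below that level in both, including *Fgf7* and *Fgf9*. *Fgf23* has a pair of probes that gave 74956 and 4.94 in the *Dullard*-/- embryo, against 72837 and 7.11 in the *Dullard*+/- embryo, and only the first was well above background, at 0.15. Of the remaining receptors, *Fgfrl1*, which lacks the kinase, was at 0.37 ± 0.05 and *Fgfr4* at -0.26 ± 0.06, where the *Fgfr4* probes gave -0.55 and 0.03.

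The proteins that present FGFs to their receptors were mostly close to the *Dullard*+/- level. Of 18 measured genes of heparan sulphate synthesis and its core proteins, 11 were higher and 7 lower, none by 2-fold, with a median of 0.03. The glypican *Gpc4* was the highest, with 1040 in the *Dullard*-/- embryo, against 637 in the *Dullard*+/- embryo (0.82 ± 0.05). The sulphotransferase *Hs6st2* was the lowest at -0.46 ± 0.08. Of 7 measured co-receptors and extracellular modulators, none was 2-fold apart, with *Flrt1* highest at 0.60 ± 0.17 (0.31 with the offset of 50) and *Klb*, the co-receptor of the hormone-like FGF15, lowest at -0.32 ± 0.08. The median was 0.16.

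All 22 listed signal transducers that act downstream of the receptors were measured and all lay within 1.5-fold, as did 92.7% of all genes. The median of the 22 was 0.10. They ran from -0.26 ± 0.06 for the adaptor *Crk* to 0.32 ± 0.04 for the kinase *Araf*. On their brightest probes alone *Crk* was at -0.07 and *Araf* at 0.08. Of 13 measured feedback inhibitors and target genes, 8 were higher and 5 lower, and the median was 0.07. At 1.5-fold, 3 were higher (3.92% of all genes) and none was lower (3.37% of all genes). Those 3 were *Egr1* (0.73 ± 0.07), an immediate early gene that other signals also induce, *Il17rd* (0.72 ± 0.05), which inhibits FGF receptors, and *Spry1* (0.60 ± 0.08), a Sprouty inhibitor. At 1.52-fold, *Spry1* was past the cut by less than its error. The other 10 lay within 1.5-fold. Of these *Spred3* (0.52 ± 0.23) and *Spry4* (0.32 ± 0.11) were the highest, *Etv1*, *Dusp6*, *Spred2*, *Spred1*, *Spry2*, *Etv5* and *Etv4* lay from 0.14 down to -0.08, and *Dusp4* was the lowest at -0.39 ± 0.08. Transcript signals leave the activity of the kinases unmeasured.

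**Figure D5:**
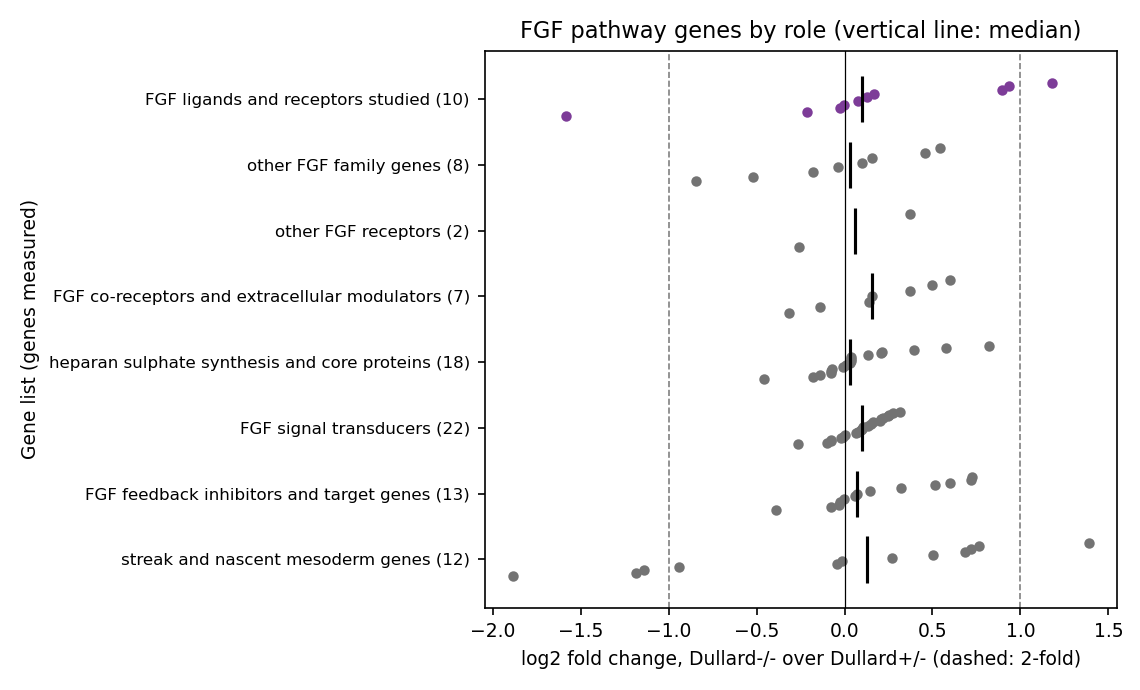
Each point is 1 measured gene, placed by its log2 fold change (*Dullard*-/- over *Dullard*+/-) in the row of its list, with the list's median as a vertical line, dashed lines at 2-fold and the number of genes in brackets. The 22 signal transducers lie within -0.26 and 0.32, while the 10 FGF ligands and receptors and the 12 streak genes reach past 2-fold on both sides. Of all genes, 92.7% lie within 1.5-fold.

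Genes of the streak and nascent mesoderm, where *Fgf4* and *Fgf8* are known to be expressed, went both ways as those ligands did. Of 12 measured, 1 was at least 2-fold higher (*Mixl1*, 1.39), as were 0.894% of all genes. At least 2-fold lower were 3 (*Msgn1*, -1.88, *T*, -1.19, and *Dll1*, -1.14), as were 0.765% of all genes. The median of the 12 was 0.13. *Msgn1* was dim, with 13.9 in the *Dullard*-/- and 55.4 in the *Dullard*+/- embryo. In its bin of signal (the lowest) 2.19% of genes were at least 2-fold lower. With the offset of 50 *Mixl1* was at 1.06, while *Msgn1*, *T* and *Dll1* were at -0.47, -0.70 and -0.68, inside 2-fold. *Snai1* was at 0.72 and *Tbx6* at -0.01, and of the 12 genes 6 lay above 0 and 6 below.

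Markers of other tissues in the samples also differed, and their part in the FGF values was not tested. Summed levels are over all probes of a list, those not above background included, after division by the array's 75th percentile, and the brightest probes weigh most in them. Of 5 markers of red blood cells all were lower, 3 of them measured on both arrays and 2 on the *Dullard*+/- array alone. Whether their RNA came from adult or embryonic cells was not tested. The 3 measured on both arrays ran from -1.38 ± 0.08 (*Hba-a2*) to -0.61 ± 0.14 (*Alas2*). With the offset of 50 *Hba-a2* was at -0.94 and *Alas2* at -0.24. *Hbb-bt* gave 2.38 in the *Dullard*-/- embryo, which was not well above background, against 56.5 in the *Dullard*+/- embryo, at least 7.19-fold lower when set against the lowest signal well above background, and the list's summed level was 0.907 in the *Dullard*-/- and 2.16 in the *Dullard*+/- embryo. Of 7 extraembryonic ectoderm markers, the tissue that receives FGF4, 2 were higher and 5 lower, none by 1.5-fold, with a median of -0.19 and a summed level of 20.0 in the *Dullard*-/- and 21.1 in the *Dullard*+/- embryo. *Ets2* was their lowest at -0.41 and *Esrrb* their highest at 0.51. Among all genes, 92.7% lay within 1.5-fold. The value of *Bmp4* in this list, -0.32, averages a bright probe at -0.08 and a dim probe at -0.55 ± 0.28. The dim probe gave 8.61 in the *Dullard*-/- and 13.7 in the *Dullard*+/- embryo. On the bright probe alone *Bmp4* would lie above *Cdx2* (-0.19), the gene at the median. The median of this list thus rests in part on that dim probe. Of 8 visceral endoderm markers none was past 1.5-fold, with a median of -0.02, a summed level of 113 in the *Dullard*-/- and 117 in the *Dullard*+/- embryo, and a range from -0.34 (*Cubn*, -0.09 on its brightest probe) to 0.27 (*Afp*). Of 5 ectoplacental cone and giant cell markers 4 were measured, from -0.74 (*Ascl2*) to 1.07 (*Prl3d1*, from signals of 33.8 in the *Dullard*-/- and 17.4 in the *Dullard*+/- embryo), with summed levels of 8.47 in the *Dullard*-/- and 8.30 in the *Dullard*+/- embryo, and *Tpbpa* was not well above background in either. With the offset of 50 *Ascl2* was at -0.43 and *Prl3d1* at 0.29, and without the filter on dim probes *Prl3d1* was at 0.64. Of 6 decidua markers, 5 were not well above background as genes, the defining *Prl8a2* among them, and the summed level was 0.174 in the *Dullard*-/- and 0.193 in the *Dullard*+/- embryo. *Pgr* was at -0.55, but at 0.09 without the filter on dim probes, since its probes went opposite ways.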

How the data were processed

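RNA of 1 *Dullard*-/- and 1 *Dullard*+/- embryo was measured on 1 array each, on the same slide and in the same scan. The paper and the labels name different amplification kits and RNA inputs, and which was used is not known here. The authors deposited Agilent Feature Extraction (version 10.10) spot intensity values, already background-subtracted, and a processed intensity table, which equalled the scanner signal times a constant of 5.20 for the *Dullard*-/- and 4.91 for the *Dullard*+/- array. What that constant was set to is not known. The deposited flags and other columns were read as given per the file headers.

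Values are log2 of the processed signal minus the 75th percentile over the 43020 spots that are not controls. Of these, 206 with an outlier flag on either array were left out, and saturation was flagged on no spot. Replicate spots were combined by their mean, and a gene takes the mean over those probes that cleared background on both arrays. Of all spots, 29310 were well above background on the *Dullard*-/- and 31242 on the *Dullard*+/- array, and the number of arrays limits the precision. Accessions without versions were named through a RefSeq gene table (GRCm38.p6), which named 30235 spots and left 12785 unnamed. The arrays were annotated on mm9, so that table served only for names and neighbours. Promoter sequences are from RefSeq (GRCm38.p6).

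The members, lists and rules were chosen with earlier results of these data known. Named were all members, *Dullard*, the highest and lowest gene of each list, those past 2-fold and the 3 protein-coding neighbours on each side of adjacent members. Further genes (such as *Otx2*'s companions on the epiblast list, *Fgf1*, the remaining feedback inhibitors and targets, *Snai1*, *Tbx6*, *Bmp4*, *Hbb-bt*, *Fgf2* and *Fgf23*) were named after their values were seen. No test was run, since 1 embryo stands for each genotype. The steps were tested on simulated arrays. Alternatives were other scalings, normexp correction on median signals, no filter on dim probes, other ways to combine probes and the processed table. Work was done in R 4.3.3 with limma 3.58.1 and in Python 3.11.15 with pandas 2.3.3 and numpy 2.4.6; figures used matplotlib 3.10.9.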

Additional observations from a re-analysis of the deposited data

How the results depend on the processing

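*Fgf4* stayed the lowest and below 0, and *Fgf5*, *Fgf8* and *Fgf10* stayed above 0, in all 11 alternatives, from -1.70 to -0.77 for *Fgf4*, 0.78 to 0.93 for *Fgf5*, 0.48 to 0.98 for *Fgf8* and 0.88 to 1.22 for *Fgf10*. *Fgf4*, *Fgf5*, *Fgf10* and *Fgf15* each have 1 probe, so combining probes in other ways or dropping the dim filter could not change their values. Scaling by a constant, as in the processed table, moves all genes by the same amount. The alternatives are therefore not separate checks. With normexp and an offset of 50 the count at least 2-fold higher was 0 of the 10 FGF genes and the count lower 0, and over all genes 10 were higher and 5 lower, against 132 and 113. That offset is added to every signal and so draws the log2 fold changes of dim probes toward 0 by construction. With normexp and no offset the counts over all genes were 69 and 46, and without a filter on dim probes, which adds genes, 484 and 778. Without scaling the median over all genes moved to -0.10, the split over all genes was 90 higher and 165 lower, and the median of the FGF genes was -0.0116, against 0.10. With the brightest probe of each gene that median was 0.0057. *Fgf17*, *Fgfr1*, *Fgfr2* and *Fgfr3* each changed sign in at least 1 alternative, and the brightest *Fgfr3* probe alone gave -0.06. No paired analysis was possible because each genotype has 1 embryo. The dim probes of *Fgf3* and *Fgf17* had errors of 0.23 and 0.22, which leave out the spread between embryos.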
